A study of Drosophila melanogaster with 14 samples.

Results

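The genes described here are 72 long noncoding RNA (lncRNA) genes of Drosophila melanogaster that were well expressed in adult heads or brains. They are the genes whose FlyBase symbol starts with lncRNA and that reached 5 FPKM (fragments per kilobase of exon, scaled to the depth of the library) in both libraries of at least 1 of 7 genotype groups. The roX1, roX2 and CR46123 genes were left out. Of 1568 lncRNA genes listed, 72 met this level and 1496 did not, among 15490 genes listed in all. The members were chosen by these FPKM values, so the level itself is a description and carries no test. At 10 FPKM instead of 5, 34 of the 72 would remain.

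Long noncoding RNAs are transcripts that are not known to be translated into protein. Some act in the nucleus on chromatin, splicing or the storage of RNA-binding proteins, some serve as precursors of small RNAs, and for most the function is not known. In insects and mammals many are transcribed in the nervous system, often in few cell types.

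Poly(A) RNA was sequenced from flies aged 5 to 7 days that are labelled as adult males, about 50 flies per library and 2 libraries per group. The labels give brain as the tissue and the series description gives heads. The series asked which pathways are touched by APP (amyloid precursor protein), by the Shal495 mutation and by TrpA1, a cation channel. Values were deposited in 3 separately normalised tables, and no test crosses from one table to another.

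The APP table held the driver control (Elav-Gal4;+;+), the transgene control (w;UAS-APP;+) and flies with both (Elav-Gal4;UAS-APP;+), called here elav-Gal4, UAS-APP and elav-Gal4 UAS-APP. The elav-Gal4 driver expresses a UAS transgene in neurons. The Shal495 table held w1118 and w;+;Shal495, an allele of Shal, which encodes a voltage-gated potassium channel. The genotype label of the second Shal495 library reads Shal496, and it was kept in its labelled group. The TrpA1 table held w;+;UAS-TrpA1 and Elav-Gal4;+;UAS-TrpA1. The labels do not say whether the flies of a table share a genetic background. They give no temperature other than room temperature.

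The libraries held 17162942 to 19911318 fragments, recovered from the FPKM steps. The label of male sex does not match the level of every group. Yp2, a yolk protein gene known for expression in the fat body of females, was at 145 and 150 FPKM in elav-Gal4, 313 and 351 in Shal495 and 393 and 404 in UAS-TrpA1, and at most 1.05 FPKM in the other 4 groups. Yp1 split the groups in the same way, at 28.2 to 63.7 FPKM against at most 0.426 FPKM. The roX2 RNA, which in flies belongs to the dosage compensation complex of males, was at 7.40 and 6.88 FPKM in elav-Gal4, 24.4 and 19.6 in Shal495 and 21.4 and 21.2 in UAS-TrpA1. It was at 20.5 and 21.3 FPKM in elav-Gal4 UAS-APP and at 44.3 to 96.3 FPKM in the other 3 groups. The roX1 RNA of the same complex was at 69.7 to 99.9 FPKM in elav-Gal4 and UAS-TrpA1 and at 156 FPKM or more in the other groups. Among these were Shal495, at 304 and 279 FPKM, and w1118, at 320 and 303, so in Shal495 roX1 did not follow the split of Yp1 and Yp2. Yp1 and Yp2 thus differed between the groups of every comparison below except elav-Gal4 UAS-APP against UAS-APP. In those 4 comparisons what goes with genotype and what goes with these genes cannot be told apart. A further yolk protein gene, Yp3, differed in the remaining comparison as well, at 8.68 and 8.73 FPKM in elav-Gal4 UAS-APP against 24.4 and 31.4 in UAS-APP. In w1118 it was at 34.4 and 26.5 FPKM.

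Markers of cell types also differed between groups. The summed FPKM of 12 neuron markers was 82.4 and 82.2 in elav-Gal4, 229 to 299 in UAS-APP, 1069 to 1082 in elav-Gal4 UAS-APP, 734 to 806 in the Shal495 table and 243 to 310 in the TrpA1 table, and none of the 12 was at 0 in both libraries of a group. The sum of 14 midgut markers was 50660 and 51690 in elav-Gal4, 22210 and 24050 in UAS-APP and 673 and 678 in elav-Gal4 UAS-APP. Of these 14, Jon65Ai was at 0 in UAS-APP as well as in elav-Gal4 UAS-APP. The sum of 12 photoreceptor markers was 2949 and 3003 in elav-Gal4 and 21770 to 41740 in the other groups. Testis markers summed to 144 in the first w1118 library and to 7.86 in the second. Shal itself was at 27.7 and 27.1 FPKM in w1118 and at 18.3 and 20.0 FPKM in Shal495. TrpA1 was at 1.48 and 1.48 FPKM in UAS-TrpA1 and at 2.76 and 2.62 FPKM in elav-Gal4 UAS-TrpA1.

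All 72 members were listed in the 3 tables, whose biotype column calls each of them protein coding. By the Ensembl annotation of BDGP6, 12 lie on chromosome arm 2L, 13 on 2R, 15 on 3L, 17 on 3R, 3 on chromosome 4 and 12 on X. Their exons covered a median of 792 bases, against 637 bases for the lncRNA genes below the level and 2108 bases for the other genes at the same level. A single transcript was annotated for 51 of the 72. Of the members, 41 overlap no other listed gene, 20 overlap a gene on the opposite strand only and 11 overlap one on the same strand. The share that overlaps a gene, 43.1%, stands beside 33.3% of the lncRNA genes below the level and 44.7% of the other genes at the level. No strand marking is stated in the labels, and a fragment from overlapping genes could be counted for either.

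Exon bases are shared with another gene in 9 members. CR42491 shares 377 exon bases with RpL22, a ribosomal protein gene on the same strand, and holds the small nucleolar RNA gene snoRNA:Psi18S-531. CR42862 shares 246 exon bases with CG33229. CR45327 shares 222 exon bases with Rtf1, which lies on the opposite strand and encodes a subunit of the Paf1 transcription complex. CR40469 (X:122493-122706) and CR34335 (X:3545750-3546110) have the same best protein match in the annotation tables and may be near-identical copies, so the split of fragments between them is uncertain. The genes of mir-4951 and mir-9381 lie inside Hsromega and mimi.

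Most members were weakly expressed. The mean over the 14 libraries was 100 FPKM or more in 2 members, 20 to 100 in 9, 10 to 20 in 10 and under 10 in 51, and the median of these means was 5.21 FPKM. The members took 0.175% to 0.934% of all fragments of a library. Their share was 0.788% or more in both groups of the Shal495 table and in elav-Gal4 UAS-APP, and 0.265% or less in the other 4 groups. A single gene, CR42862, held between 8.90% and 58.0% of the members' summed FPKM. It took 111595 to 141029 fragments per library in the groups with the high share and 11159 to 27116 in the other 4. The highest count of any other member with recovered fragments was 7366, for noe in Shal495. The split of the share thus mostly reflects CR42862.

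CR42862 (3L:224106-230964) was the most abundant member. In the APP table it stood at 253 and 251 FPKM in elav-Gal4, 248 and 230 in UAS-APP and 1182 and 1159 in elav-Gal4 UAS-APP. The w1118 libraries had 1165 and 1405 FPKM and the Shal495 libraries 1231 and 1167. It was at 145 and 147 FPKM in UAS-TrpA1 and at 106 and 106 FPKM in elav-Gal4 UAS-TrpA1. The levels thus fell into a high class of 3 groups and a low class of 4, with no library in between. CG33229, with which it shares exon bases, split the groups in the same way. It was at 19.3 to 31.3 FPKM in the groups of the high class and at 10.6 to 15.1 FPKM in those of the low class. The part of the shared bases was not tested.

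The noe gene (3L:17400272-17401348), which encodes a noncoding RNA known from the fly nervous system, came second. Its level was 21.1 and 18.4 FPKM in elav-Gal4, 156 and 153 in UAS-APP and 288 and 296 in elav-Gal4 UAS-APP. It was 218 and 268 FPKM in w1118, 377 and 368 in Shal495, 245 and 237 in UAS-TrpA1 and 214 and 219 in elav-Gal4 UAS-TrpA1. The driver control stood lowest by far. The gene blot, in whose intron noe lies on the same strand, ranged only from 4.76 to 17.0 FPKM.

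The mimi gene (3R:23983503-23985065) was at 8.41 and 9.40 FPKM in elav-Gal4, 34.0 and 33.1 in UAS-APP and 106 and 101 in elav-Gal4 UAS-APP. The w1118 libraries had 155 and 146 FPKM, the Shal495 libraries 135 and 131, the UAS-TrpA1 libraries 35.0 and 34.3 and the elav-Gal4 UAS-TrpA1 libraries 25.4 and 23.6. CG13603, 148 bases away on the opposite strand, stayed between 49.9 and 78.2 FPKM. CR44922 (3R:4375084-4377600) had its lowest values, 4.85 and 4.14 FPKM, in elav-Gal4 and its highest, 65.4 and 68.1 FPKM, in w1118.

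Other abundant members had a different order of groups. CR44832 (X:5790952-5791536) was highest in elav-Gal4 UAS-TrpA1, at 148 and 149 FPKM, and lowest in elav-Gal4, at 8.61 and 11.5 FPKM. CR34335 was highest in the TrpA1 table, at 103 to 123 FPKM, and lowest in Shal495 and elav-Gal4 UAS-APP, at 18.5 to 22.7 FPKM. CR31781 (2L:16869346-16878300) stayed between 22.2 and 59.96 FPKM, and its w1118 libraries, at 51.7 and 29.5, lay as far apart as most groups did. CR32553 (X:18124575-18127027) was at 3.72 and 4.67 FPKM in Shal495 and at 71.9 and 73.1 FPKM in UAS-TrpA1.

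**Figure D1:**
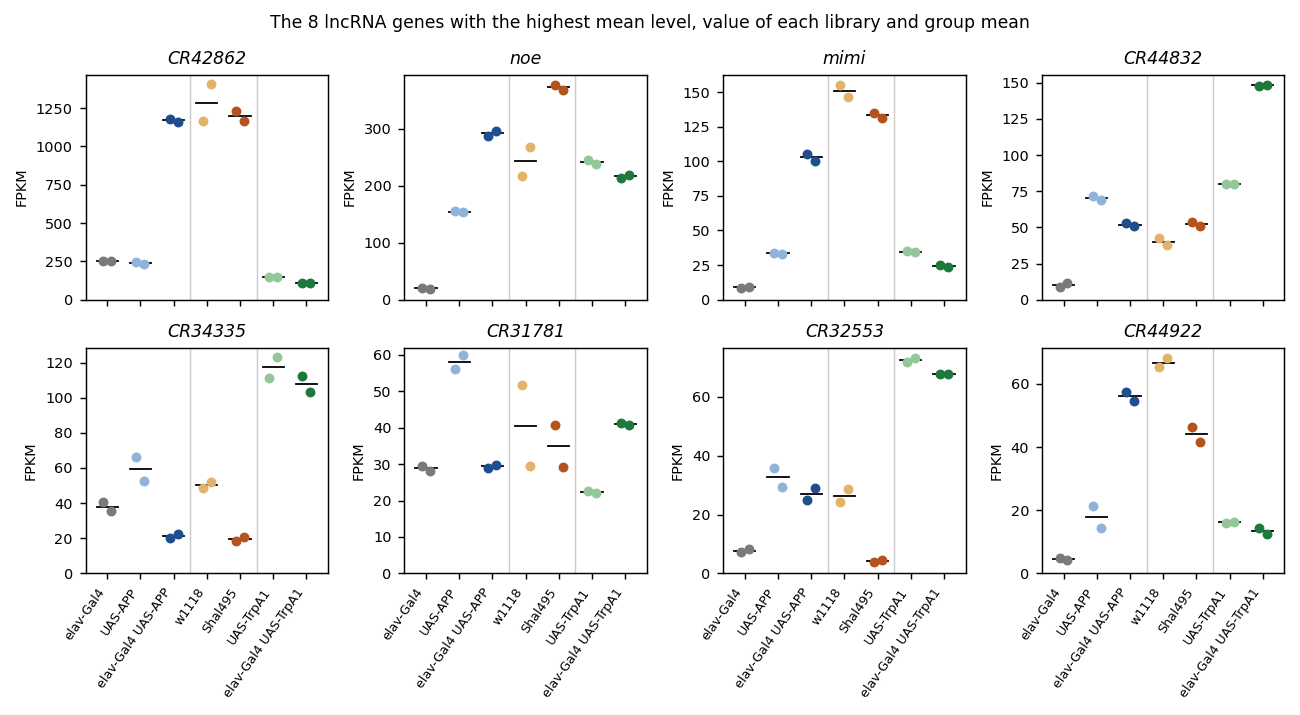
FPKM (vertical axis, linear, from 0) of the 8 members with the highest mean level, with 1 point per library, a bar at the mean of the 2 libraries and grey lines between the 3 separately normalised tables. CR42862 and mimi are high in the same 3 groups, noe is low in elav-Gal4 alone, and CR32553 is low in Shal495 and elav-Gal4.

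Hsromega (3R:21296127-21317836), the heat-shock RNA that organises nuclear speckles of RNA-binding proteins in flies, was the least variable member. It ranged from 9.20 to 16.4 FPKM over the 14 libraries, and its highest group mean was 1.54 times its lowest. It passed the threshold in none of the 5 comparisons, with adjusted p in limma between 0.202 and 0.994. Its neighbour aus, 464 bases away, ranged from 7.90 to 71.8 FPKM. For 5 members the highest group mean was under 2 times the lowest, for 31 it was 2 to 10 times, for 31 it was 10 times or more, and 5 had a group mean of 0. The median ratio was 8.51 over the 67 members with a ratio. These ratios use the values that chose the members, and 26 of the 72 were chosen through 1 group, which favours a high ratio, so they are a description. They, and with them the rank of Hsromega, also compare group means across separately normalised tables.

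Of 17 lncRNA genes picked for a studied role or as stress RNAs, noe and Hsromega were members. The cherub, sphinx, yar, let7C, acal and flam genes were listed but stayed at or below 0.983 FPKM, the highest value of let7C. The other 9 were not analysed here.

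Across the groups, 13 members were at 5 FPKM or more in both libraries of all 7 groups, 33 in 2 to 6 groups and 26 in exactly 1 group. The number at that level ran from 30 in Shal495 and 31 in elav-Gal4 to 36 in elav-Gal4 UAS-TrpA1 and 37 in elav-Gal4 UAS-APP. The lowest group mean fell in elav-Gal4 for 26 of the 72, taken across the separately normalised tables. The same share over all genes was not computed, so this count is a description. Within the APP table, 50.2% of all genes tested were called lower in elav-Gal4 than in UAS-APP. Members just inside the level were CR46060, with a lower library of 5.15 FPKM in w1118, and CR45703, with 5.20 FPKM in elav-Gal4 UAS-TrpA1. CR44043, at 4.94 FPKM in w1118, and CR45251, at 4.89 FPKM in UAS-TrpA1, were just outside it.

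**Figure D2:**
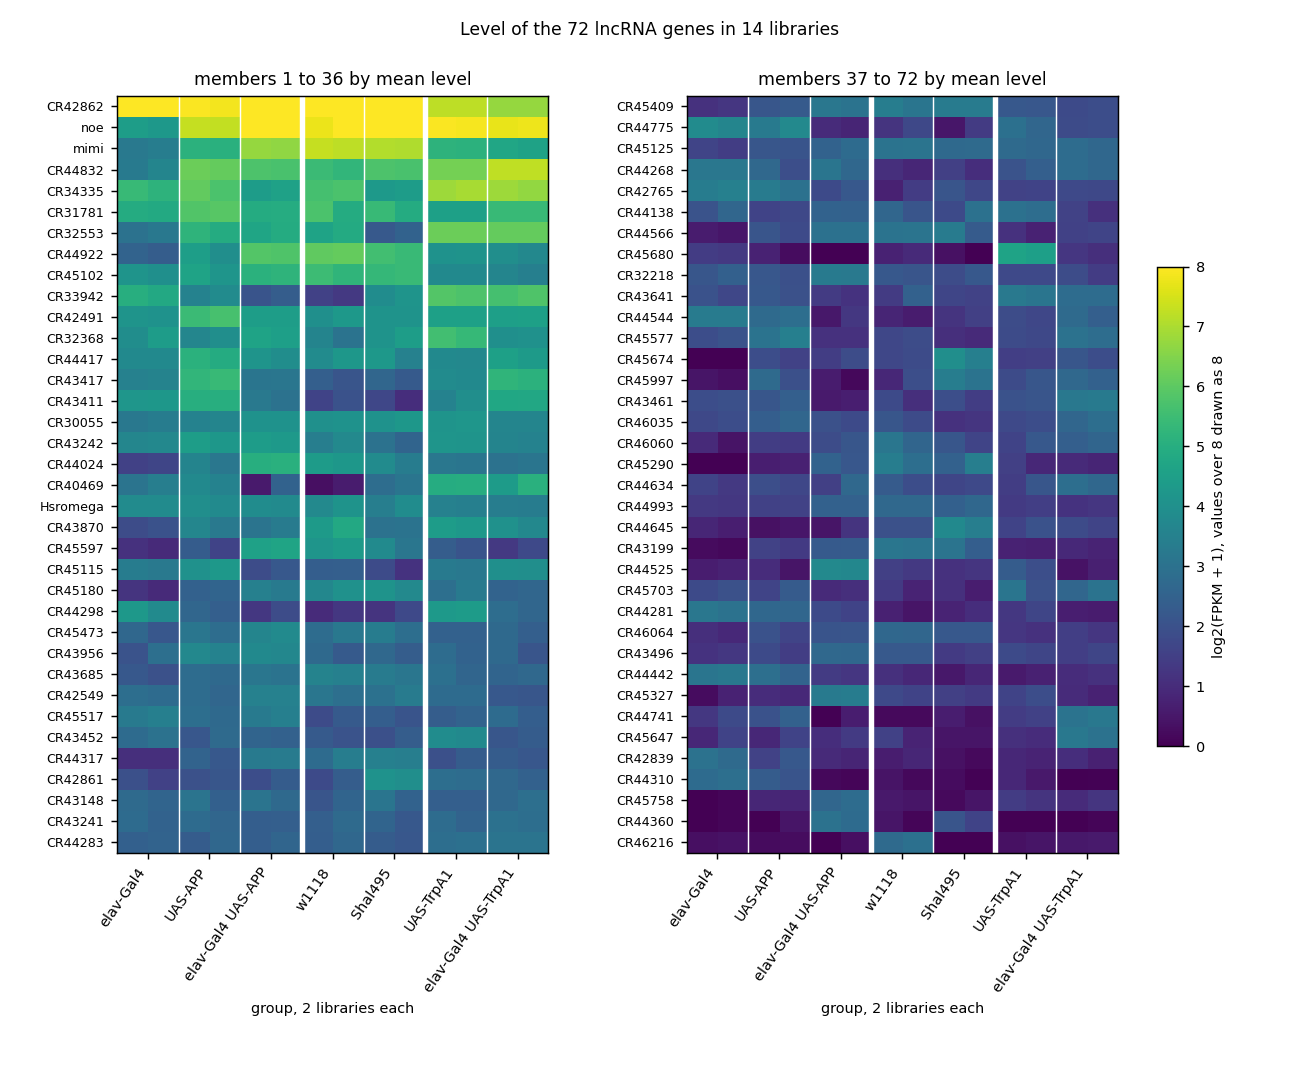
Level of each of the 72 members (rows, in order of mean level) in the 14 libraries (columns, 2 per group), as log2(FPKM + 1) by colour, with broad white lines between the separately normalised tables. Rows such as Hsromega keep 1 colour across all libraries, while CR45680 stands out in UAS-TrpA1, CR46216 in w1118 and CR42861 in Shal495.

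Some members stood well higher in 1 group than in the others. In 8 members the highest group mean was at least 3 times the next, taken across the separately normalised tables. Since their place in the set rests on that group, these values are given with no test. CR45680 (3R:13617750-13618559) was at 23.9 and 21.8 FPKM in UAS-TrpA1, from 332 and 351 fragments. In the other 12 libraries it lay between 0 and 1.67 FPKM, among them elav-Gal4 UAS-TrpA1 at 1.41 and 1.09 FPKM. CG9269, 1258 bases away, was at 0.51 and 0.61 FPKM in UAS-TrpA1 and at 0 in elav-Gal4 UAS-TrpA1.

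CR46216 (3L:19248529-19249689) was at 5.79 and 6.81 FPKM in w1118 and listed at 0 in both Shal495 libraries. The other 10 libraries were at 0.489 FPKM or less. CR46216 lies 0.317 Mb from Shal on the same chromosome arm, the second nearest of the 15 members on 3L. The nearest, CR32218, at 0.311 Mb, was at 3.60 and 3.35 FPKM in w1118 and at 2.62 and 3.63 FPKM in Shal495. The position of CR46216 in the tables differs from the annotation, as do those of CR45473 and CR46064, and no fragment count could be recovered for these 3.

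CR45674 (3L:21318223-21318650) and CR44645 (2R:20506195-20506895) were highest in Shal495. CR45674 was at 14.4 and 9.84 FPKM there, at 2.27 and 2.55 FPKM in w1118, at 0 in both elav-Gal4 libraries and at 1.75 to 3.40 FPKM elsewhere. CR44645 was at 13.0 and 9.67 FPKM in Shal495 and at 2.94 and 2.96 FPKM in w1118, with 0.292 to 3.01 FPKM in the other groups. Both libraries of Shal495 lay above every other library for each of these genes.

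CR45647 (3R:22543278-22543578) was at 8.12 and 7.07 FPKM in elav-Gal4 UAS-TrpA1 and at 0.363 to 2.07 FPKM elsewhere. The other 3 of the 8 were highest in elav-Gal4 UAS-APP. CR44525 (3L:7408493-7409707) was at 12.6 and 12.2 FPKM there and at most 3.98 FPKM elsewhere. CR45327 (2R:22378263-22379007) was at 8.54 and 9.34 FPKM and at most 2.70 FPKM elsewhere. Rtf1, with which it shares exon bases, was also higher there within the APP table. Its level was 20.5 and 21.2 FPKM in elav-Gal4 UAS-APP, 9.69 and 8.58 in elav-Gal4 and 13.4 and 11.9 in UAS-APP. In the Shal495 table Rtf1 was at 19.5 to 20.4 FPKM. The part of the shared bases was not tested. CR45758 was at 5.21 and 6.11 FPKM and at most 1.66 FPKM elsewhere.

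**Figure D3:**
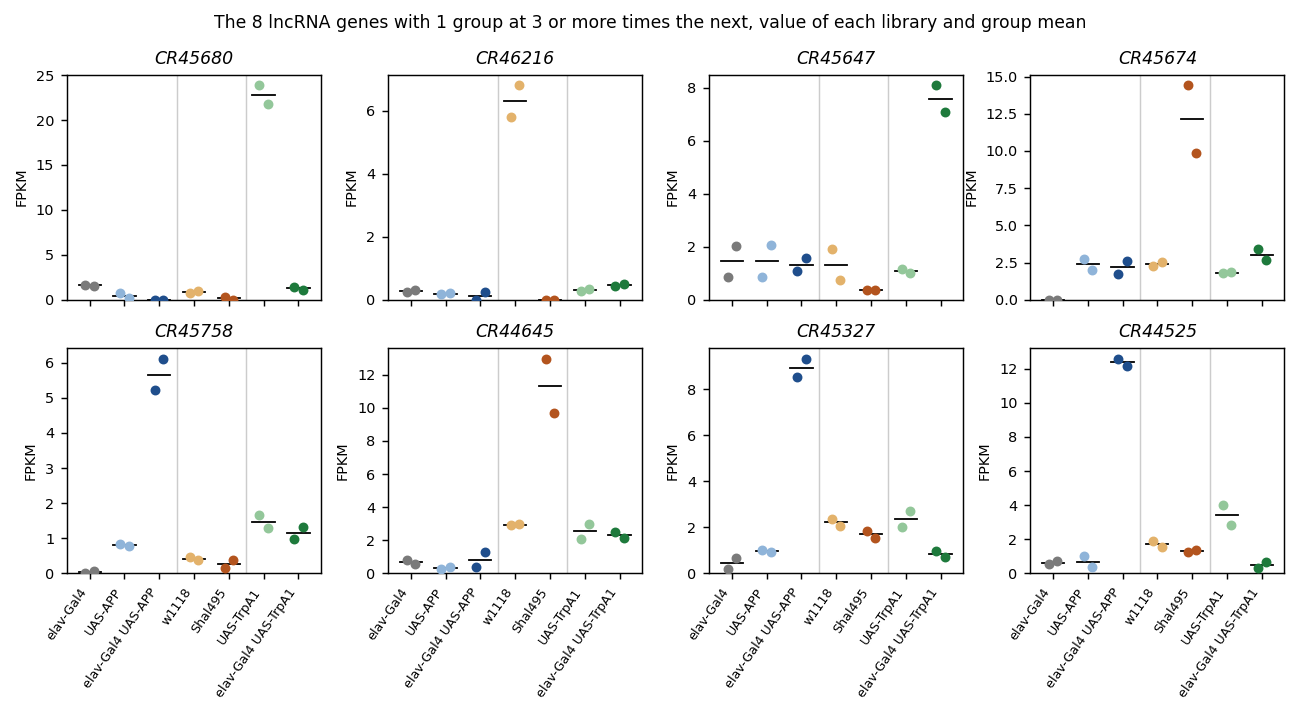
FPKM (vertical axis, linear, from 0) of the 8 members whose highest group mean was at least 3 times the next, with 1 point per library, a bar at the mean of the 2 libraries and grey lines between the 3 separately normalised tables. The 2 libraries of the highest group lie above the other 12 in every panel.

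Differences within a table were tested for all genes together with limma on log2(FPKM + 1), at an adjusted p under 0.05. With 2 libraries per group and no statement of separate cultures, the p-values reflect nothing but the spread between libraries of a group, which may be technical. A member was counted only where it reached 5 FPKM in a group outside the comparison, because a member that entered through the compared groups could be chosen for its difference. In bulk RNA, fewer cells of a type cannot be told apart from less RNA per cell. The median gene was shifted by 0.43 (log2) in elav-Gal4 UAS-APP against elav-Gal4, 0.17 against UAS-APP, -0.27 in elav-Gal4 against UAS-APP, -0.07 in Shal495 against w1118 and -0.16 in elav-Gal4 UAS-TrpA1 against UAS-TrpA1. Log2 differences are given below less this shift, except for Shal495, where it was under 0.1. The call itself tests the unshifted difference.

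Flies with driver and UAS-APP were compared with each of their 2 controls, and both comparisons use the same elav-Gal4 UAS-APP libraries. Against the driver control, 28 of 61 members tested rose (45.9%, with 56.5% of all genes), 17 fell (27.9%, with 27.5% of all genes) and 16 did not pass. Among the other genes at the same level, 56.1% rose and 29.3% fell. The difference between these shares and those of the members was not tested, so the counts are no result about lncRNA genes. The libraries of the groups did not overlap for 50 of the 61 members and for 93.2% of all genes. The median difference of the 61 was -0.08 less the shift. Under median centring 26 fell, and under quantile normalisation 26 fell.

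The members that rose most against elav-Gal4 were noe, CR45597, CR44024, mimi and CR44922. The noe mean was 292 ± 5.56 FPKM (SD, n = 2) against 19.7 ± 1.88, a log2 difference of 3.39 (SE 0.07, adjusted p in limma 2.57e-08). CR45597 (3R:4279673-4280057) stood at 22.6 and 24.3 FPKM against 1.21 and 0.925, a log2 difference of 3.14 (SE 0.21, adjusted p in limma 2.95e-06). CR44024 (4:427331-431769) stood at 31.5 and 32.5 FPKM against 1.90 and 2.18, and its log2 difference was 3.01. For mimi and CR44922 the log2 differences were 2.97 and 2.95. By the rule that named them, their libraries do not overlap between the groups.

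The members that fell most were CR44775, CR33942, CR44298, CR44544 and CR40469. CR44775 (2L:6507424-6508404) was at 0.981 and 0.758 FPKM against 13.6 and 11.5, a log2 difference of -3.28 (SE 0.17, adjusted p in limma 2.82e-06). CR33942 (2R:18711391-18711951) was at 3.19 and 4.12 FPKM against 31.6 and 27.7, a log2 difference of -3.15. CR44298, on the opposite strand within magu, was at 1.43 and 2.66 FPKM against 18.1 and 13.3, and CR44544 was at 0.423 and 1.47 FPKM against 9.13 and 9.05. CR40469 was at 0.4999 and 4.72 FPKM against 7.52 and 9.74, from 2 and 19 fragments against 31 and 41. The neuron and midgut marker sums differed between the same libraries, at 1069 to 1082 against 82.2 to 82.4 FPKM and at 673 to 678 against 50660 to 51690 FPKM. Photoreceptor sums were 30500 to 30510 against 2949 to 3003 FPKM and sums of 10 fat body markers 616 to 630 against 2674 to 2698 FPKM, with Yp2 at 0.463 and 0.492 against 145 and 150 FPKM. Their part in these results was not tested.

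Against the transgene control, 23 of 63 members rose (36.5%, with 46.1% of all genes), 27 fell (42.9%, with 30.7% of all genes) and 13 did not pass. Among the other genes at the same level, 45.7% rose and 33.7% fell, and the difference between these shares and those of the members was not tested. The libraries did not overlap for 52 of the 63 and for 88.4% of all genes. The median difference of the 63 was -0.20 less the shift. CR45597 rose by 2.48 (SE 0.21, adjusted p in limma 2.40e-05), from 3.98 and 2.06 FPKM in UAS-APP. CR42862 rose by 2.12 (SE 0.06, adjusted p in limma 2.86e-07), from a mean of 239 ± 13.1 FPKM (SD, n = 2) to 1171 ± 15.9. CR44024, CR44922 and mimi rose by 1.48, 1.45 and 1.42, and noe rose by 0.75.

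CR44775 fell most, with a log2 difference of -2.80, from 8.80 and 12.7 FPKM in UAS-APP. CR43417 (2R:16817519-16819240) fell from 37.5 and 40.6 FPKM to 7.71 and 7.89, a log2 difference of -2.36 (SE 0.07, adjusted p in limma 5.78e-07). CR45115 (3L:6865449-6866439) fell from 15.6 and 18.1 FPKM to 2.59 and 3.64, and CR45577 (3R:10896479-10897181) fell from 7.27 and 10.0 FPKM to 1.22 and 1.21. CR40469, from 12.9 and 10.6 FPKM, had a log2 difference of -2.29 with an SE of 0.53. Neuron marker sums were 1069 to 1082 against 229 to 299 FPKM midgut sums 673 to 678 against 22210 to 24050 FPKM and fat body sums 616 to 630 against 1753 to 2304 FPKM, and their part was not tested. Yp2 was under 0.5 FPKM in all 4 libraries.

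The members in the set through elav-Gal4 UAS-APP are given as values. CR44360 (3L:4377368-4377999), in an intron of DopEcR, a receptor for dopamine and ecdysteroids, was at 7.02 and 5.97 FPKM in elav-Gal4 UAS-APP, from 83 and 71 fragments. It was at 3.31 and 2.08 FPKM in Shal495 and at most 0.362 FPKM in the other groups. CR32218 was at 8.82 and 8.45 FPKM, and CR43496 at 5.52 and 5.42 FPKM, against at most 4.498 and 3.72 FPKM in all other libraries.

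The driver control against the transgene control shows how far 2 controls differed in the same genes. In elav-Gal4, 6 of 64 members were higher than in UAS-APP (9.38%, with 16.2% of all genes), 38 were lower (59.4%, with 50.2% of all genes) and 20 did not pass. Among the other genes at the same level the shares were 15.8% and 54.3%. The libraries did not overlap for 51 of the 64 and for 84.1% of all genes. Without the second elav-Gal4 library 3 were higher, and with quantile normalisation or median centring 12 or 13 were. The lowest relative to UAS-APP were noe, with a log2 difference of -2.64 (SE 0.07, adjusted p in limma 6.07e-07), and CR44832, with -2.43. CR45997 followed with -1.71, at 0.380 and 0.248 FPKM against 5.86 and 2.91. It lies on the same strand within an intron of mbl, which encodes the splicing regulator muscleblind. CR32553 and mimi had log2 differences of -1.68 and -1.53. CR44298, CR33942, CR44268, CR45680 and CR44138 were higher, with log2 differences of 1.77, 1.51, 1.14, 1.12 and 0.95. Photoreceptor marker sums were 2949 to 3003 against 21770 to 26290 FPKM in the same libraries, midgut sums 50660 to 51690 against 22210 to 24050 FPKM and Yp2 145 and 150 against 0.316 and 0.281 FPKM, and their part was not tested.

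**Figure D4:**
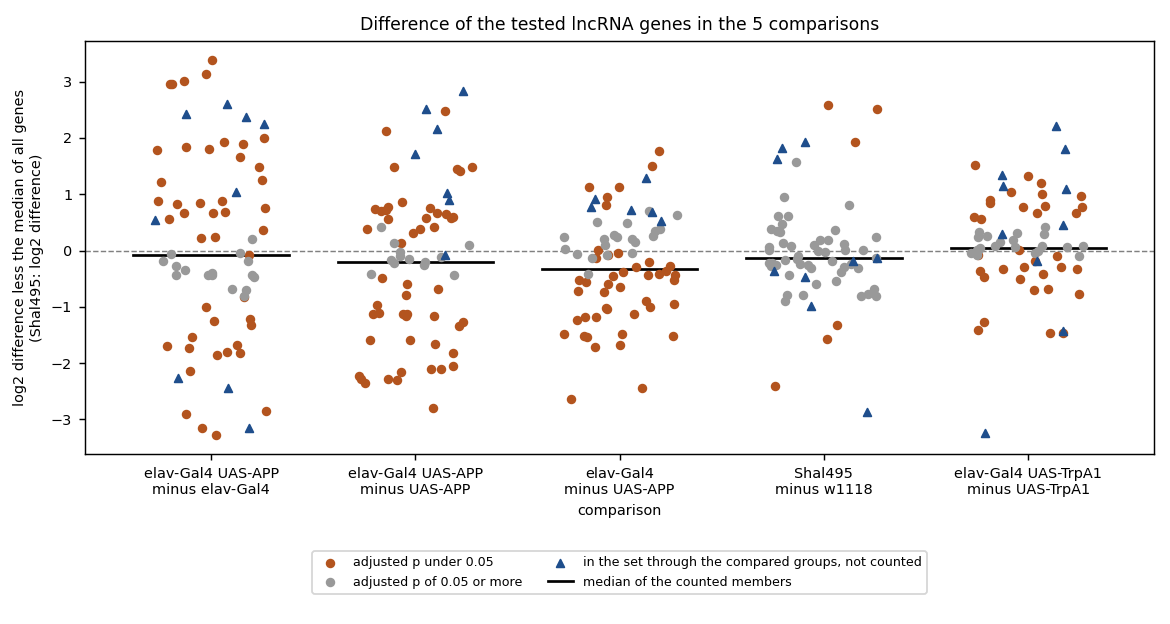
Log2 difference of each tested member in the 5 comparisons (vertical axis, less the median of all genes, and unshifted for Shal495). Circles are members that reached the level outside the compared groups, coloured by the adjusted p in limma, triangles are members that did not and are not counted, and bars are medians of the circles. Medians lie between -0.33 and 0.05, with single members from -3.28 to 3.39.

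In Shal495 against w1118, 3 of 55 members rose (5.45%, with 1.16% of all genes), 3 fell (5.45%, with 1.20% of all genes) and 49 did not pass. Among the other genes at the same level, 1.22% rose and 1.22% fell, and the difference between the shares was not tested. The libraries did not overlap for 29 of the 55 and for 52.7% of all genes. Without the first or without the second Shal495 library, which carries the deviating label, limma called 0 of 51 and 0 of 52, while 5 rose at an unadjusted p under 0.05 in each case and 13 and 11 fell. Without a filter on low values it called 0 of 63, with 8 and 13 at an unadjusted p under 0.05, and with voom on recovered fragments 1 rose and 2 fell. Leaving out either w1118 library, the first of which held the testis markers, left 3 in each direction.

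CR33942 rose from 1.93 and 1.52 FPKM in w1118 to 13.9 and 16.7 in Shal495, a log2 difference of 2.58 (SE 0.16, adjusted p in limma 0.00744). CR42861 (X:13744928-13745476) rose from 2.502 and 4.18 FPKM to 16.0 and 14.5, a log2 difference of 1.93 (SE 0.22, adjusted p in limma 0.0313). CR40469 rose from 0.267 and 0.511 FPKM to 6.18 and 7.66, from 1 and 2 fragments to 24 and 30. Its possible copy CR34335 fell, from 48.4 and 51.9 FPKM to 18.5 and 20.4, a log2 difference of -1.32 (SE 0.10, adjusted p in limma 0.0108). With the pair uncertain, neither value can be assigned to 1 locus.

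CR32553 fell from 24.1 and 28.5 FPKM to 3.72 and 4.67, a log2 difference of -2.40 (SE 0.15, adjusted p in limma 0.00744). CR43870 (3L:17245882-17264290), 2.3 Mb from Shal, fell from 19.7 and 27.1 FPKM to 7.03 and 7.24, a log2 difference of -1.57 (SE 0.17, adjusted p in limma 0.0293). With the replicate number as a block, CR42861 and CR43870 had adjusted p of 0.0651 and 0.0526. The most abundant members did not pass: CR42862 had a log2 difference of -0.09 (adjusted p in limma 0.780) and noe of 0.62 (adjusted p in limma 0.0945). Neuron marker sums were 734 to 759 FPKM in Shal495 and 798 to 806 FPKM in w1118. Of these markers, Gad1, ChAT, Vmat and elav were lower in Shal495, with Gad1 at 114 and 141 against 169 and 166 FPKM. Syt1, VAChT, cac and Syx1A went the other way, with VAChT at 29.3 and 29.3 against 26.4 and 26.1 FPKM. The libraries overlapped for brp, nSyb, Rdl and VGlut. Fat body sums were 1268 and 1449 FPKM in Shal495 and 519 and 429 FPKM in w1118, with Yp2 at 313 and 351 against 0.955 and 1.05 FPKM. Sums of 5 hemocyte markers were 13.5 and 16.0 FPKM in Shal495 against 28.9 and 24.8 in w1118. Of these 5, NimC1 went the other way, at 3.67 and 3.60 FPKM against 1.04 and 0.498, and the libraries overlapped for He. The part of all these markers in the results was not tested.

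In elav-Gal4 UAS-TrpA1 against UAS-TrpA1, 15 of 56 members rose (26.8%, with 16.6% of all genes), 19 fell (33.9%, with 43.9% of all genes) and 22 did not pass. Among the other genes at the same level, 16.7% rose and 45.6% fell, and the difference between the shares was not tested. The libraries did not overlap for 43 of the 56 and for 80.9% of all genes. Without the first UAS-TrpA1 library 10 fell, and under median centring 12 fell. CR43417 rose most, from 13.4 and 13.0 FPKM to 36.7 and 34.0, a log2 difference of 1.52 (SE 0.06, adjusted p in limma 6.23e-06). CR45577 followed with 1.32, from 2.57 and 2.36 FPKM to 7.17 and 6.28. CR44832 rose from 79.9 and 80.0 FPKM to 148 and 149, a log2 difference of 1.05, and CR31781 from 22.5 and 22.2 FPKM to 41.3 and 40.8.

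CR44298 fell from 19.3 and 20.2 FPKM to 6.26 and 5.21, a log2 difference of -1.46 (SE 0.09, adjusted p in limma 1.62e-05). CR43452 (3R:20678183-20679079) fell from 13.97 and 12.9 FPKM to 3.42 and 3.99, and CR44525 from 3.98 and 2.81 FPKM to 0.300 and 0.641, with log2 differences of -1.46 and -1.42. CR42862 had a log2 difference of -0.30. The noe gene passed the test, but its difference was 0.01 once the shift was taken away. Of the members that entered through these groups, CR43461 was at 8.19 and 8.89 FPKM in elav-Gal4 UAS-TrpA1 against 3.06 and 3.33, and CR44741 was at 7.25 and 8.18 FPKM against 1.66 and 1.95. Fat body marker sums were 16950 to 17120 FPKM in elav-Gal4 UAS-TrpA1 against 3881 to 3914 FPKM. Most of the sum was Obp99b, at 15660 and 15480 against 2441 and 2460 FPKM, while other genes of the list were lower in elav-Gal4 UAS-TrpA1, such as Yp2, at no more than 0.257 against 393 and 404 FPKM, and Yp3, at 12.6 and 14.8 against 407 and 411 FPKM. Their part in these results was not tested.

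Neighbouring genes are given beside the members, for 8 pairs chosen after their values were seen and with no test. CR45597 lies 164 bases from cpx, on the opposite strand, which encodes complexin, a regulator of synaptic vesicle release. The cpx level was 24.7 and 25.3 FPKM in elav-Gal4 and 269 and 272 in elav-Gal4 UAS-APP, the groups in which CR45597 was lowest and highest. CR45674 lies 124 bases from Rab26, a small GTPase gene, which was at 33.8 and 32.8 FPKM in Shal495, 18.5 and 17.5 in w1118 and 1.03 and 0.81 in elav-Gal4.

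The nearest gene to CR45647 is AdipoR, a receptor gene on the opposite strand, which was at 423 and 443 FPKM in elav-Gal4 UAS-TrpA1 and at 194 FPKM or less elsewhere. CR44741 lies 153 bases from CG10621, which was at 258 and 260 FPKM in elav-Gal4 UAS-TrpA1 and at 2.68 to 111 FPKM elsewhere. In these 4 pairs the lncRNA gene and its neighbour were highest in the same group. By group mean this also held for CR44360 with DopEcR and CR42862 with CG33229, though libraries of DopEcR and CG33229 overlapped between groups. DopEcR was at 137 and 133 FPKM in elav-Gal4 UAS-APP and 135 and 117 in Shal495. CG33229 was at 25.4 and 31.3 FPKM in w1118 and 27.0 and 25.3 in elav-Gal4 UAS-APP. The pairs of noe with blot and of Hsromega with aus were not highest in the same group.

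Pairs were also counted for all members that reached the level outside the comparison, where both genes were tested. It was asked whether the member and its nearest gene without overlap moved to the same side of the median. In elav-Gal4 UAS-APP they did in 20 of 34 pairs against elav-Gal4 and 20 of 36 against UAS-APP. They did in 18 of 36 in elav-Gal4 against UAS-APP, 18 of 29 in Shal495, by the unshifted difference, and 14 of 29 in the TrpA1 table. For overlapping genes the counts in the same order were 13 of 24, 15 of 23, 15 of 26, 11 of 23 and 9 of 22.

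**Figure D5:**
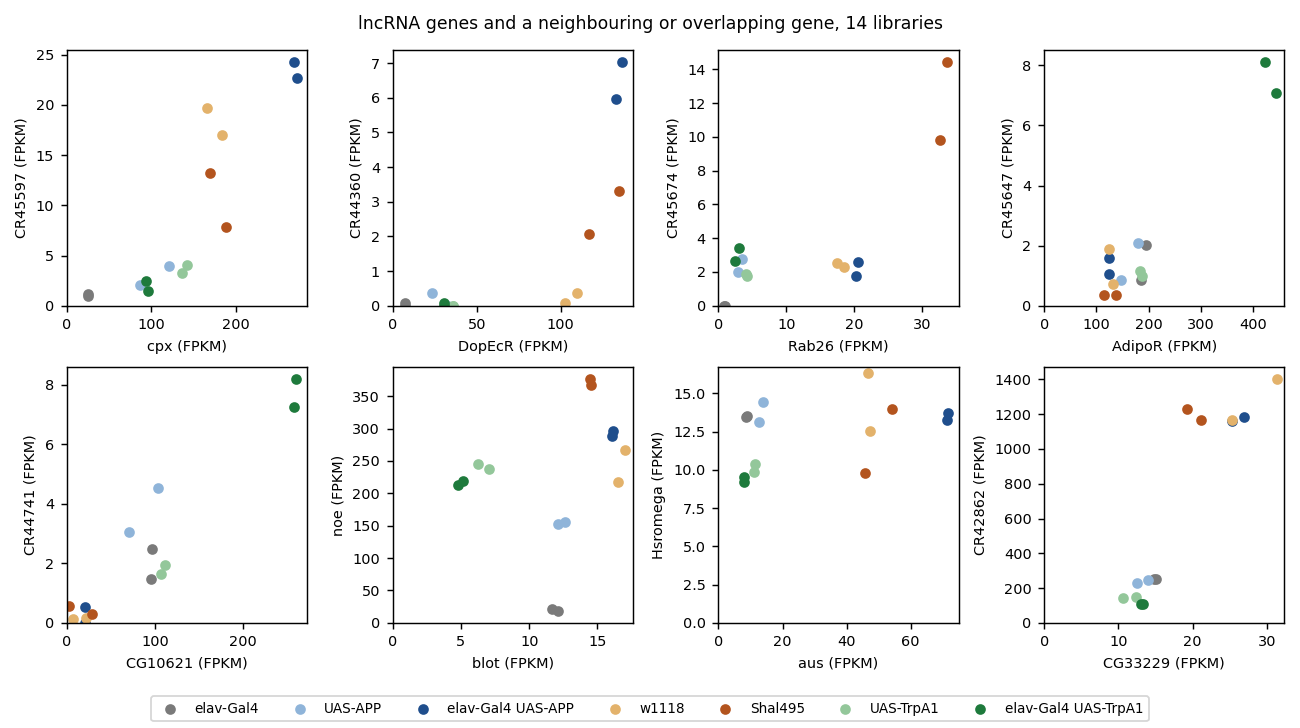
FPKM of 8 lncRNA genes (vertical axis) against FPKM of a gene that overlaps or adjoins each (horizontal axis), with 1 point per library, coloured by group, over 3 separately normalised tables. CR45647 with AdipoR and CR44741 with CG10621 are both highest in elav-Gal4 UAS-TrpA1, while Hsromega stays within 9.20 to 16.4 FPKM as aus ranges from 7.90 to 71.8 FPKM.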

How the data were processed

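RNA-seq values of 14 libraries in 7 groups were taken from the 3 tables of FPKM per gene and library that the authors deposited. Poly(A) selection, the NEBNext Ultra kit and paired ends are given per the labels' protocols. Per the submitters' processing notes, BDGP6, Bowtie2 2.2.3, HISAT2 2.1.0 and TopHat2 were used, with no role named. For the FPKM step, the tool was not given in the sources used here. Of the deposited files, the 6 enrichment tables were not used. The members and lists were chosen with earlier results of these data known.

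Symbols were matched for 99.1% of genes, and 99.2% of annotated genes had the same coordinates in the Ensembl annotation of BDGP6. Fragment totals were recovered from FPKM steps, within 0.02 of a whole number, which gave whole fragments for 98.6% to 98.7% of genes. A gene entered the test of a table with 1 FPKM or more in 2 of its libraries. Values were taken as log2(FPKM + 1), and the test was limma 3.58.1 (R 4.3.3), with a variance trend and Benjamini-Hochberg adjustment over all genes, and the pseudocount understates changes of low genes. The 3 groups of the APP table shared 1 fit.

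Genes were named from a fixed list of 17, of which 2 were members, and otherwise were members that host small nucleolar RNAs, the 8 with the highest mean, the 5 largest rises and falls per comparison past the threshold without overlap of libraries, and up to 5 past both APP comparisons and another table. Other members were named after their values were seen. Alternatives were a pseudocount of 0.1, no filter, quantile normalisation, median centring, a replicate block, voom on recovered fragments, members that overlap no gene, members at 10 FPKM, only the 2 groups compared and each library left out. Replicate numbers did not pair the libraries: differences between replicates correlated at -0.033 to 0.018 between groups of a table. Replicate pairs differed by more than sampling noise in every group.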

Additional observations from a re-analysis of the deposited data

How the results depend on the processing

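Replicate numbers were shared by the groups but did not pair the libraries (correlations of -0.033 to 0.018), and with the number as a replicate block 30, 24, 6, 2 and 16 members rose and 17, 27, 39, 2 and 20 fell in the comparisons of elav-Gal4 UAS-APP with elav-Gal4, of it with UAS-APP, of elav-Gal4 with UAS-APP, of Shal495 with w1118 and in the TrpA1 table. In the same order, leaving out each library gave 28 to 30, 20 to 25, 3 to 8, 0 to 3 and 12 to 15 that rose and 15 to 18, 24 to 28, 33 to 36, 0 to 3 and 10 to 22 that fell. With fewer members by construction, those that overlap no gene gave 16, 14, 3 and 9 that rose (Shal495 left out) and 9, 14, 19, 1 and 9 that fell, and members at 10 FPKM gave 16, 11, 3 and 6 that rose (Shal495 left out) and 8, 13 and 21 that fell in the 3 comparisons of the APP table. Quantile normalisation and median centring each gave 26 that fell against elav-Gal4, and 12 and 13 that rose in elav-Gal4 against UAS-APP. Median centring gave 12 that fell in the TrpA1 table. Without a filter on low values 0 rose and 0 fell in Shal495, and voom on recovered fragments gave 1 that rose there. The cause was not tested. The sign turned for CR42491 against elav-Gal4 (-0.067 with quantile normalisation, -0.21 with median centring), for CR43461 in elav-Gal4 against UAS-APP (0.073 with quantile normalisation) and for noe in the TrpA1 table (0.032 with median centring). Of 1165 alternative values for 97 changes of named members past the threshold, 1083 stayed past it in the same direction, 78 lost it and 4 reversed. Many members rest on few fragments where they are low, such as 1 and 2 for CR40469 in w1118. Small differences at such levels were not detectable at this depth.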

Other observations

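Several members lie close together. CR43148 and CR44993 are 2.27 kb apart on 2L, CR40469 and CR45473 are 18.3 kb apart on X and CR44024 and CR45125 are 46.1 kb apart on chromosome 4. CR44922 lies 95.0 kb from CR45597 and 219 kb from CR44317 on 3R, and in elav-Gal4 UAS-APP their log2 differences less the shift were 2.95, 3.14 and 1.81 against elav-Gal4 and 1.45, 2.48 and 0.77 against UAS-APP. These comparisons share the elav-Gal4 UAS-APP libraries. CR43148 was at 3.33 to 7.69 FPKM in all 14 libraries, while CR44993 was at 4.52 to 5.46 FPKM in the Shal495 table and in elav-Gal4 UAS-APP up to 4.63 FPKM, and at 1.27 to 2.01 FPKM elsewhere. On chromosome 4 lie 3 of the 72 members (4.17%), against 0.668% of the lncRNA genes below the level and 0.965% of the other genes at the level.

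A second group of members, chosen after their values were seen, was highest in elav-Gal4. These are the 3 members that reached the level in elav-Gal4 alone, so their high level there follows from how they entered the set and carries no test. CR44310 (2L:3616296-3617619) was at 5.96 and 6.53 FPKM in elav-Gal4, 3.98 and 3.26 in UAS-APP and at most 0.836 FPKM in the other libraries. CR44442 was at 7.68 and 8.15 FPKM in elav-Gal4, 6.66 and 4.83 in UAS-APP and at most 1.64 FPKM elsewhere. CR42839, 240 bases from srp, a GATA factor gene, was at 7.15 and 5.84 FPKM in elav-Gal4, 1.96 and 3.63 in UAS-APP and at most 1.05 FPKM elsewhere. Midgut marker sums were 50660 and 51690 FPKM in elav-Gal4 and 22210 and 24050 FPKM in UAS-APP, and their part in these levels was not tested.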
